A study of Mus musculus with 20 samples.

Results

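Collagens are the triple-helical proteins that form most of the extracellular matrix of the heart. The collagen genes were taken as every row of the deposited count table whose symbol was Col, a number, the letter a and a number, which found 44 of the 29339 genes listed. Of these, 34 reached 10 counts in 3 or more of the 20 libraries and were tested, as were 15187 genes in all. RNA-seq libraries had been made from poly-A RNA of hearts of C57BL/6 mice aged 8 weeks, either wild type (WT) or Tecrl-/-, the knockout (KO) of an enoyl-CoA reductase-like gene that is linked to catecholaminergic polymorphic ventricular tachycardia in people. By the labels there were 5 male WT, 5 male KO, 3 female WT and 7 female KO libraries, no treatment was given, and the labels do not say whether each library came from a different mouse. The text of the study describes fewer mice per group than the libraries of the larger groups, so some libraries may share a mouse, and n below counts libraries. The p-values therefore measure the spread between libraries. Male and female below mean the labelled sex.

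Each collagen molecule is a trimer of chains, either copies of a single gene product or the products of several genes, and the chains are hydroxylated, glycosylated and folded in the endoplasmic reticulum before secretion. Fibrillar collagens form the tension-bearing fibres between muscle bundles and are made mainly by cardiac fibroblasts, type IV collagens form the sheet of the basement membrane around each cardiomyocyte and capillary, and the FACIT, beaded filament, multiplexin, short chain and transmembrane collagens connect these networks to each other and to cells. Fibroblasts, endothelial cells, mural cells, epicardium and valves each make their own mixture, so that in RNA of bulk tissue fewer cells of a type and less RNA per cell cannot be told apart.

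Libraries carried names of 2 kinds, S1 to S12 and WT or TKO with a number, and no label says what the names mean. Total counts ranged from 12540002 in TKO5 to 20038593 in S1, and mitochondrial genes took 15.3% to 30.4% of them. Collagens together took 0.118% of the counts in WT1 and 0.298% in TKO4. Xist, the RNA of the inactive X chromosome, and the Y-linked genes went against the labelled sex in 6 libraries: the male WT libraries S7, S8 and S9 held Xist and no Y-linked counts, and the female KO libraries S4, S5 and S6 held Y-linked RNA and almost no Xist. Within the S libraries every WT library carried Xist and every KO library Y-linked RNA, so genotype and sex-linked RNA cannot be told apart there. Tecrl itself lay between 57.5 and 109.2 CPM (counts scaled to the library total) and did not separate KO from WT libraries. The labels of sex or genotype may therefore be wrong for some libraries, and KO and WT below mean the labelled genotype. The fibroblast markers were above 0 in every library. Atrial cardiomyocyte markers were uneven: their score, the mean log2(CPM + 1) of 10 genes, was 8.74 in S7, 8.21 in S9, 7.60 in S11 and 7.18 in S12, between 4.21 and 4.93 in S5, S6 and S10, and between 1.82 and 2.56 in the other 13. Of those 10 genes, Bmp10 was at 0 in 11 libraries, and Sln and Mybphl were each at 0 in 3.

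Basement membrane collagens made up most of the collagen message. On the length-scaled FPKM scale (fragments scaled by exon length and library total), which allows levels to be compared between genes, the 6 type IV genes held 71.0% of the summed collagen level, the fibrillar class 14.7%, the beaded filament class 7.69% and the multiplexins 2.69%. FACIT collagens held 1.93%, short chain collagens 1.08%, transmembrane collagens 0.519% and the remaining genes 0.442%. The summed level of all collagens was 222 ± 45.5 FPKM in male WT (SD, n = 5), 253 ± 49.4 in male KO (n = 5), 292 ± 37.1 in female WT (n = 3) and 273 ± 79.5 in female KO (n = 7). The ranges of all 4 groups overlapped, from 162 FPKM in WT1 to 402 in TKO4. Col4a1 and Col4a2 alone accounted for 54.5% of the sum in S7 and 76.9% in S1, with a median of 67.9%.

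**Figure D1:**
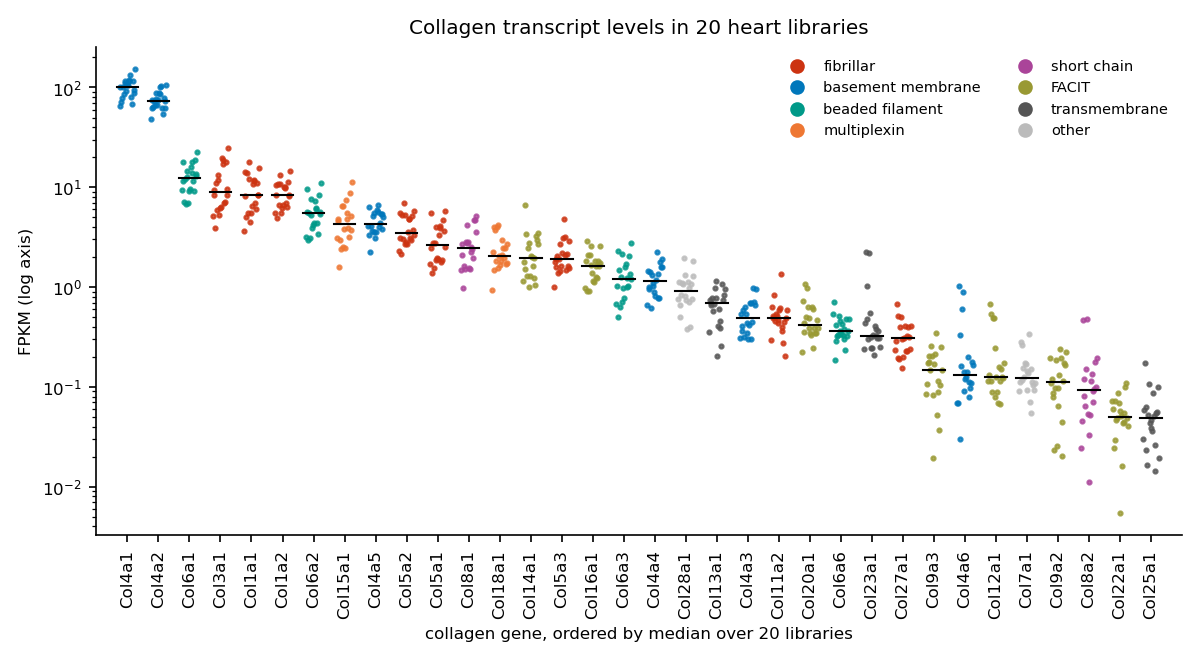
Level of each of the 34 tested collagen genes in the 20 libraries, in FPKM on a log axis, with 1 point per library, a line at the median, genes ordered by median and colours for the collagen classes. Col4a1 and Col4a2, with medians of 100.6 and 73.9 FPKM, stand above all other collagens, and Col6a1 follows at 12.4.

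Col4a1 and Col4a2 encode the chains of the type IV trimer found in nearly all basement membranes. In male hearts, Col4a1 was at 64.6, 100.4, 72.2, 77.9 and 101 FPKM in WT1, WT2, S7, S8 and S9 of the WT group and at 86.3, 110.1, 116, 92.4 and 107 in S10, S11, S12, TKO5 and TKO6 of the KO group. In female hearts, Col4a1 was at 106, 115 and 118 FPKM in the WT libraries S1, S2 and S3, and the 7 KO libraries had a lowest value of 68.0, a median of 93.6 and a highest of 152. WT1 and TKO4 marked the ends, the male groups overlapped, and the 3 female WT values fell inside the female KO range. In male hearts, Col4a2 was at 48.7, 74.6, 62.5, 63.6 and 72.9 FPKM in the WT libraries and at 67.0, 76.8, 87.0, 67.5 and 74.5 in the KO libraries, in the same order. In female hearts, Col4a2 was at 87.1, 86.8 and 101 FPKM in WT and at 54.3, 73.3 and 105 in KO (lowest, median and highest). WT1 was the lowest and TKO4 the highest library for both genes, and Col4a1 exceeded Col4a2 in each library, by a ratio between 1.16 in S7 and 1.46 in TKO1. The next type IV gene was Col4a5, an X-linked gene whose chain joins the trimers of specialised basement membranes. In male hearts, Col4a5 was at 4.13, 3.35, 6.33, 2.26 and 4.07 FPKM in WT and at 3.69, 5.10, 5.50, 3.56 and 3.11 in KO. In female hearts, Col4a5 was at 3.54, 5.86 and 5.66 FPKM in WT and at 3.81, 5.08 and 6.61 in KO. The 4 groups of Col4a5 values overlapped, and the lowest value was in S8. Col4a4 had a median of 1.14 FPKM, Col4a3 of 0.491 and Col4a6 of 0.132.

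Among the fibrillar collagens, Col3a1, Col1a1 and Col1a2 led at nearly equal median levels of 8.91, 8.37 and 8.36 FPKM, which did not differ beyond their spread over libraries. Col1a1 and Col1a2 encode the chains of type I collagen, the main fibre of scar and of healthy interstitium, and Col3a1 encodes the homotrimer of the finer, more compliant type III fibres. In male hearts, Col3a1 was at 5.20, 9.37, 8.45, 3.92 and 10.95 FPKM in WT and at 5.92, 11.9, 13.2, 5.24 and 6.20 in KO. In female hearts, Col3a1 was at 6.40, 19.6 and 18.9 FPKM in WT and at 6.94, 9.70 and 25.03 in KO. TKO4, S2 and S3 were the highest for Col3a1 and S8 the lowest, with overlap between genotypes in both sexes. In male hearts, Col1a1 was at 3.69, 8.14, 14.4, 4.99 and 13.9 FPKM in WT and at 5.56, 12.2, 17.8, 4.46 and 5.50 in KO. In female hearts, Col1a1 was at 6.55, 10.8 and 11.6 FPKM in WT and at 6.02, 8.45 and 15.7 in KO. In the male groups the 4 highest Col1a1 values were those of S12, S7, S9 and S11, which were also the 4 libraries with the highest atrial score. In male hearts, Col1a2 was at 5.48, 8.37, 10.6, 4.98 and 10.7 FPKM in WT and at 6.64, 10.8, 13.4, 5.54 and 6.16 in KO. In female hearts, Col1a2 was at 6.63, 10.1 and 10.04 FPKM in WT and at 6.38, 8.35 and 14.7 in KO. The genotypes overlapped for both type I chains. The ratio of Col1a1 to Col1a2 ran from 0.673 in WT1 to 1.35 in S7, and that of Col1a1 to Col3a1 from 0.549 in S2 to 1.70 in S7. Col5a2, a chain of the type V collagen that starts fibril assembly, had a median of 3.46 FPKM. In male hearts, Col5a2 was at 2.31, 3.08, 5.47, 2.15 and 5.27 FPKM in WT and at 3.05, 6.98, 5.22, 2.73 and 2.82 in KO. In female hearts, Col5a2 was at 2.71, 3.55 and 4.82 FPKM in WT and at 2.98, 3.73 and 5.79 in KO. Its groups overlapped as well. Col5a1 and Col5a3 had medians of 2.62 and 1.91 FPKM, and Col11a2 and Col27a1, best known from cartilage, had medians of 0.490 and 0.308.

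Type VI collagen, the beaded microfibril that sits beside basement membranes, came next. In male hearts, Col6a1 was at 9.38, 11.5, 18.1, 7.08 and 11.98 FPKM in WT and at 6.82, 12.8, 14.6, 6.99 and 9.27 in KO. In female hearts, Col6a1 was at 9.65, 15.8 and 13.9 FPKM in WT and at 9.09, 13.6 and 22.4 in KO. The groups overlapped, and the highest male value was in S7. In male hearts, Col6a2 was at 3.16, 5.67, 9.59, 2.93 and 5.57 FPKM in WT and at 3.13, 5.24, 7.63, 3.93 and 4.22 in KO. In female hearts, Col6a2 was at 4.35, 7.21 and 6.22 FPKM in WT and at 3.38, 5.67 and 10.9 in KO. Col6a3, the remaining chain of the common trimer, had a lower median of 1.22 FPKM, and Col6a6, a chain that can take its place, of 0.364. The multiplexin Col15a1, which bridges the basement membrane to the fibres outside it, had a median of 4.26 FPKM. In male hearts, Col15a1 was at 3.09, 4.64, 4.81, 1.58 and 2.99 FPKM in WT and at 2.40, 6.43, 6.53, 2.55 and 3.80 in KO. In female hearts, Col15a1 was at 2.47, 7.42 and 5.53 FPKM in WT and at 3.18, 4.83 and 11.2 in KO. S8 was again the lowest library for Col15a1 and the groups overlapped.

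The other tested collagens were lower. Col8a1, a short chain collagen of vessel walls, and Col18a1, the multiplexin that carries endostatin, had medians of 2.47 and 2.07 FPKM. Among the FACIT collagens, which decorate the surface of fibrils, Col14a1 and Col16a1 led at 1.97 and 1.64 FPKM, followed by Col20a1 at 0.414, Col12a1 at 0.126 and Col22a1 at 0.0502. The transmembrane collagens were Col13a1 at 0.686, Col23a1 at 0.324 and Col25a1 at 0.0487 FPKM. Col28a1 was at 0.909, Col9a3 at 0.147, Col7a1, the anchoring fibril of skin, at 0.121, Col9a2 at 0.113 and Col8a2 at 0.0934. Neighbours in this order overlapped in their ranges over libraries. The 10 genes that were not tested were Col2a1, Col9a1, Col10a1, Col11a1, Col17a1, Col19a1, Col24a1, Col26a1, Col6a4 and Col6a5, among them the cartilage collagen genes Col2a1 and Col10a1. None of the 10 exceeded 11 counts in any library.

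Libraries labelled KO and WT, the study's comparison for Tecrl deficiency, were compared first in male hearts. At the thresholds the study used, an unadjusted p under 0.05 and a log2 fold change of at least 0.58 in either direction, Col8a1 and Col28a1 were higher in KO and none of the 32 collagens tested was lower. Over all 14481 genes tested, 0.905% were called higher and 1.19% lower at these thresholds. In male hearts, Col8a1 was at 1.47, 2.69, 2.11, 0.983 and 1.62 FPKM in WT (1.77 ± 0.652, SD, n = 5) and at 1.53, 2.82, 4.18, 2.74 and 2.84 in KO (2.82 ± 0.939, n = 5). 4 of the 5 KO values lay above all WT values, and S10 lay among them. The log2 fold change of Col8a1 was 0.69 (SE 0.252), or 1.62-fold, with an unadjusted p under 0.05 but an adjusted p = 0.882 (edgeR quasi-likelihood, Benjamini-Hochberg over all genes). In male hearts, Col28a1, which encodes a collagen of peripheral nerve, was at 0.764, 1.12, 0.504, 0.655 and 0.842 FPKM in WT (0.776 ± 0.229, n = 5) and at 1.09, 1.08, 1.97, 1.32 and 0.822 in KO (1.26 ± 0.437, n = 5). S12 held the highest Col28a1 value and the groups overlapped. Its log2 fold change was 0.70 (SE 0.266), with an adjusted p = 0.882 by the same edgeR test.

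The main collagens of male hearts passed neither threshold. Col4a1 had a log2 fold change of 0.31 (SE 0.140) and Col4a2 of 0.21 (SE 0.119), both with an adjusted p = 0.882 in edgeR. Of the 32 collagens, 17 had a positive and 15 a negative fold change, and their median of 0.03 stood beside -0.01 over all genes. All 4 tested chains of type VI were negative, with a lowest value of -0.20, and 5 of 6 type IV genes were positive. None of these genes reached an unadjusted p under 0.05 in edgeR, and 47.1% of all genes were positive. No collagen and no other gene passed an adjusted p of 0.05 in male hearts (0% of the genes tested), where 2 collagens and 688 genes had an unadjusted p under 0.05 in edgeR. Both calls came from the S libraries: neither gene passed without S7, S8 and S9, whose sex-linked RNA went against the label, where Col8a1 changed by 0.42 and Col28a1 by 0.17. Leaving out S12 alone also removed both calls (0.49 for Col8a1 and 0.50 for Col28a1), leaving out S8 removed Col8a1 (0.55) and leaving out S7 removed Col28a1 (0.56).

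In the libraries labelled female, 2 of the 31 collagens tested, Col11a2 and Col9a3, passed the same unadjusted thresholds as lower in KO, and none as higher. Over all 14511 genes, 7.15% were called lower and 2.85% higher, so the count of lower collagens was near the share of all genes. In female hearts, Col11a2, a minor fibrillar chain, was at 0.584, 0.619 and 1.36 FPKM in WT (0.854 ± 0.437, SD, n = 3) and at 0.205, 0.399 and 0.586 in KO (lowest, median and highest, 0.395 ± 0.129, n = 7). S3 stood above the other libraries, and the groups touched at 0.584 and 0.586. The log2 fold change of Col11a2 was -1.31 (SE 0.378), with an adjusted p = 0.154 by edgeR. In female hearts, Col9a3, a FACIT chain best known from cartilage, was at 0.168, 0.213 and 0.347 FPKM in WT (0.243 ± 0.0929, n = 3) and at 0.0371, 0.104 and 0.249 in KO (0.113 ± 0.0706, n = 7). Over the 20 libraries Col9a3 had 1 to 18 counts, and the groups overlapped. S1, S2 and S3 had 13, 14 and 18 counts, S4, S5 and S6 had 3, 5 and 7, and of the KO libraries TKO3 alone reached 10 (15). Col9a3 therefore passed the count filter mainly through the group where it was high, and no conclusion is drawn from its call. Its log2 fold change was -1.49 (SE 0.593), with an adjusted p = 0.237 by edgeR.

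Fold changes of the female collagens were mostly negative: 26 of 31 lay below 0, beside 7601 of all 14511 genes. The 26 included all 8 fibrillar and all 4 type VI genes, and the median was -0.26 beside -0.02 over all genes. Col14a1, at -0.47 (adjusted p = 0.273 in edgeR), passed the unadjusted p but not the fold threshold. The 8 genes with an adjusted p under 0.05 in edgeR (0.0551% of those tested) held no collagen. At an unadjusted p under 0.05 there were 3 of the 31 collagens and 2597 of the 14511 genes. All 3 female WT libraries were S libraries and the fit held a term for the kind of name, so the contrast compared S1, S2 and S3 with S4, S5 and S6, the KO libraries that carried Y-linked RNA. Genotype and sex-linked RNA therefore cannot be told apart in it. Without S4, S5 and S6, and with no term for the kind of name, 4 collagens were higher and 2 lower, 19.4% of those tested beside 15.1% of all genes, and the median was 0.22. With the atrial score as a term the median was -0.01. Leaving out S1 raised the number of calls to 9, or 29.0% of the collagens beside 20.6% of all genes. Leaving out S4 raised it to 6, or 19.4% beside 10.9%. Col9a3 missed the threshold without S3 (-1.20), S4 (-1.22) or S5 (-1.52), at a similar fold change.

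**Figure D2:**
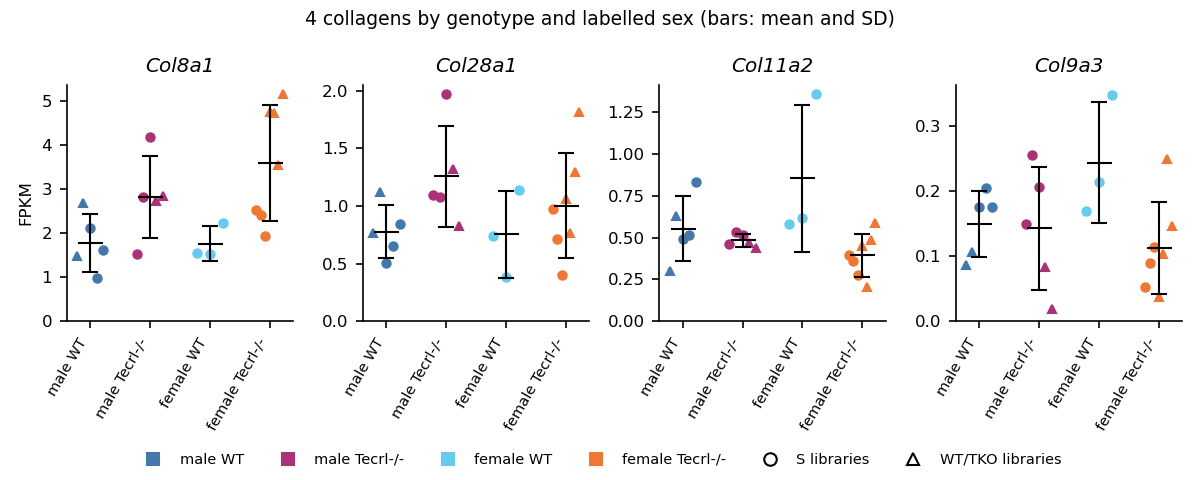
Level in FPKM of Col8a1, Col28a1, Col11a2 and Col9a3 in the 4 labelled groups, with 1 point per library, marker shapes for the kind of library name, and bars for the mean and SD. Col8a1 averages 1.77 FPKM in male WT and 2.82 in male KO, and Col11a2 averages 0.854 in female WT and 0.395 in female KO, with overlapping points in each pair.

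Over all 20 libraries, with terms for labelled sex and kind of name, no collagen passed an adjusted p of 0.05 in edgeR, and neither did any of the 15187 genes (0%). At an unadjusted p under 0.05 there were 2 collagens and 748 genes, and DESeq2 called no collagen and 12 genes after adjustment. Col8a1 was again the first collagen by p, with a log2 fold change of 0.67 (SE 0.176, adjusted p = 0.653 in edgeR). Its direction was positive in both sexes, since the female fold change was 0.36 (adjusted p = 0.333 in edgeR). In female hearts, Col8a1 was at 1.54, 1.52 and 2.23 FPKM in the WT libraries S1, S2 and S3, at 2.53, 2.40 and 1.95 in S4, S5 and S6, and at 4.75, 4.74, 3.55 and 5.17 in TKO1 to TKO4. The TKO libraries were the highest, and within the S libraries the genotypes overlapped (1.95 in S6 and 2.23 in S3). No female WT library had a WT or TKO name, so for TKO1 to TKO4 genotype and kind of name cannot be told apart. Col11a2 was lower, at -0.59 (SE 0.230, adjusted p = 0.978 in edgeR). In all, 19 of 34 collagens had a positive fold change, with a median of 0.05.

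The difference between the female and the male fold change was tested as an interaction. No collagen passed an adjusted p of 0.05 (0% of all genes passed) in edgeR, the lowest adjusted p being 0.278, and DESeq2 called no collagen and 20 genes. The 0% depended on the run: 129 genes were called with no filter on low counts and 7.45% of all genes without S1. Neither run called a collagen. At an unadjusted p under 0.05 there were 3 collagens of 2375 genes, all with the lower fold change in female hearts: Col11a2 (-0.99, SE 0.419), Col4a2 (-0.55, SE 0.236) and Col4a1 (-0.57, SE 0.265). Col4a1 was at 0.31 in the male and -0.31 in the female libraries, and Col4a2 at 0.21 and -0.36, none of which passed its own test. The collagen counts of 0 in these 2 fits also held without the 6 libraries whose sex-linked RNA went against the label.

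Libraries with WT or TKO names were compared with the S libraries. At an adjusted p under 0.05 in a fit that kept the 4 groups apart, 2 of 34 collagens were higher in the WT and TKO libraries and none was lower, beside 6.53% of all genes higher and 8.16% lower, so the collagens were called no more often than genes in general. Col8a1 ranged from 0.983 to 4.18 FPKM in the 12 S libraries (median 2.03) and from 1.47 to 5.17 in the 8 others (median 3.19). The log2 difference of Col8a1 was 0.64 (SE 0.184, adjusted p = 0.0241, edgeR). In male hearts, Col6a6 was at 0.541, 0.717, 0.188, 0.417 and 0.288 FPKM in WT1, WT2, S7, S8 and S9 and at 0.320, 0.330, 0.512, 0.365 and 0.456 in S10, S11, S12, TKO5 and TKO6. In female hearts, Col6a6 was at 0.338, 0.423 and 0.332 FPKM in S1, S2 and S3, at 0.377, 0.305 and 0.233 in S4, S5 and S6, and at 0.476, 0.320, 0.363 and 0.478 in TKO1 to TKO4. The 2 kinds of library overlapped, with WT1 and WT2 highest and S7 lowest, and the log2 difference was 0.63 (SE 0.196, adjusted p = 0.0357, edgeR).

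Both calls depended on the libraries used. Without the 6 libraries against their label both calls were lost, with Col8a1 at 0.12 and Col6a6 at 0.22. When single libraries were left out the differences stayed close in size, but Col8a1 missed the threshold without WT2, S5 or S6 (0.57 to 0.62) and Col6a6 without WT1, WT2, S6, S9, S11, TKO1, TKO4 or TKO6 (0.53 to 0.64). Leaving out S8 raised the number of calls to 4, or 11.8% of the collagens beside 15.5% of all genes. With the atrial score as a term Col6a6 fell to 0.25 and was no longer called. Col13a1, a transmembrane collagen of the neuromuscular junction, was higher by 0.63 (adjusted p = 0.0896, edgeR), and Col23a1 and Col4a6 were lower by -1.09 (adjusted p = 0.0605, edgeR) and -1.28 (adjusted p = 0.109, edgeR), none of them past the threshold. Over the 34 genes the median difference was 0.07, and all 4 type VI genes were positive, with Col6a6 alone called. Markers moved with the kind of name: 8 of 10 atrial, 7 of 7 adipocyte, 6 of 8 macrophage and 3 valve markers were lower in the WT and TKO libraries. The summed atrial markers reached 63.5 to 87.6 CPM there and 55.9 to 9195 CPM in the S libraries, and the macrophage markers 286 to 366 against 397 to 697 CPM. Beyond the fit with the atrial score as a term, the part of these markers in the differences was not tested.

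More collagens passed the adjusted threshold with the atrial score (13) than with genotype (0). In a fit with terms for the 4 groups and the kind of name, 13 of 34 collagens rose with the score at an adjusted p under 0.05 and none fell, beside 5.25% of all genes that rose and 2.96% that fell. They were 4 of 8 fibrillar genes (Col27a1, Col5a2, Col1a1 and Col1a2), 3 of 7 FACIT genes (Col14a1, Col12a1 and Col16a1), 2 of 4 beaded filament genes (Col6a3 and Col6a2), and Col18a1, Col8a1, Col23a1 and Col4a6. Of the 34 slopes 30 were positive, and that of Col6a6 was negative (-0.12, adjusted p = 0.213, edgeR). The median slope was 0.16 log2 units per unit of score, beside 0.01 over all genes.

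**Figure D3:**
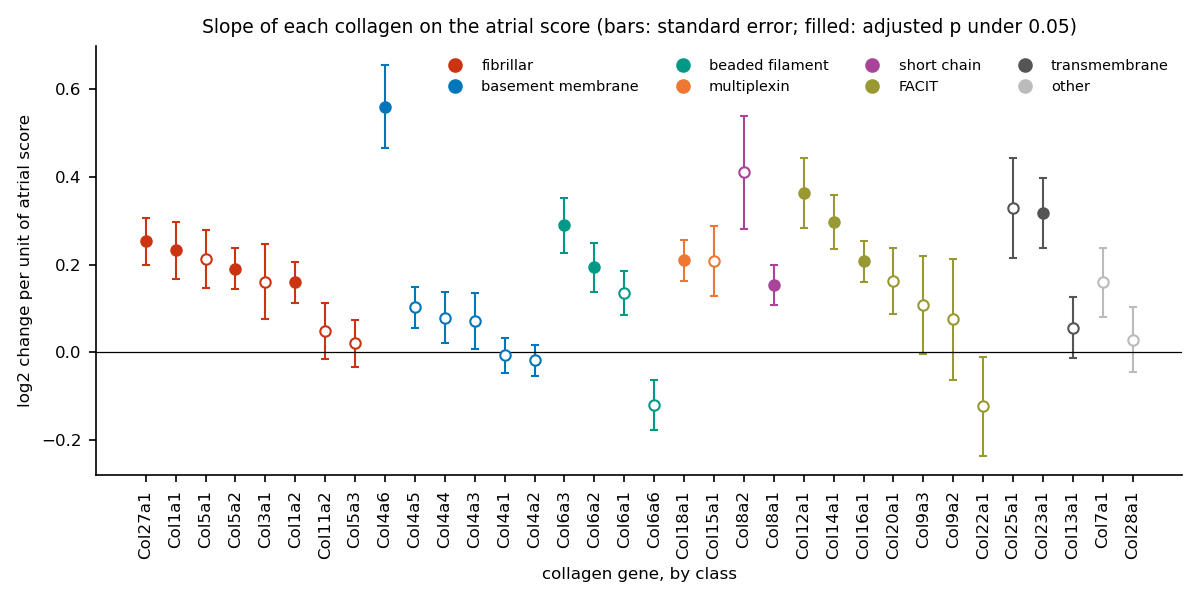
Slope of each tested collagen on the atrial score, in log2 units per unit of score with bars of 1 standard error, by class, filled where the adjusted p was under 0.05. The slopes run from 0.56 for Col4a6 to -0.12 for Col22a1 and Col6a6, and the main type IV chains Col4a1 and Col4a2 lie at -0.01 and -0.02.

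Col4a6, an X-linked type IV chain of smooth muscle basement membranes, had the steepest slope, 0.56 (SE 0.095, adjusted p = 0.00139, edgeR). In male hearts, Col4a6 was at 0.0691, 0.0687, 1.01, 0.0304 and 0.331 FPKM in WT1, WT2, S7, S8 and S9 and at 0.162, 0.598, 0.888, 0.0900 and 0.140 in S10, S11, S12, TKO5 and TKO6. In female hearts, Col4a6 was at 0.119, 0.125 and 0.140 FPKM in WT and at 0.0787, 0.111 and 0.200 in KO. The 4 libraries with the highest score lay between 0.331 and 1.01 FPKM and the other 16 between 0.0304 and 0.200, without overlap. Of the 34 collagens tested, 4 lay above the other 16 libraries in this way and none below, beside 4.68% of all 15187 genes above and 0.277% below. Its counts were low, from 4 in S8 to 108 in S7, and its slope ran from 0.46 without S7 to 0.74 without S4 and stayed past the adjusted threshold when any single library was left out. Col12a1, which links fibrils to their surroundings in tissues under load, had a slope of 0.36 (SE 0.080, adjusted p = 0.00828, edgeR). In male hearts, Col12a1 was at 0.116, 0.130, 0.679, 0.115 and 0.538 FPKM in WT and at 0.0893, 0.492, 0.489, 0.0786 and 0.245 in KO, in the same order. In female hearts, Col12a1 was at 0.125, 0.0887 and 0.0683 FPKM in WT and at 0.0672, 0.127 and 0.173 in KO. Its 4 high-score libraries (0.489 to 0.679) and the other 16 (0.0672 to 0.245) did not overlap either. In the 3 libraries of middling score, S10, S5 and S6, Col4a6 was at 0.162, 0.111 and 0.0787 FPKM and Col12a1 at 0.0893, 0.0672 and 0.115. None of these exceeded the highest value among the libraries of low score (0.200 for Col4a6 and 0.245 for Col12a1).

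The other 2 of the 4 collagens without overlap were Col18a1 and Col23a1. Col18a1 was at 3.73 to 4.21 FPKM in them and at 0.926 to 2.95 in the other 16, with a slope of 0.21 (SE 0.047, adjusted p = 0.00993, edgeR). Col23a1 was at 0.554 to 2.26 against 0.207 to 0.475 FPKM, with a slope of 0.32 (adjusted p = 0.0181, edgeR). For the other called genes the ranges overlapped. In male hearts, Col14a1, a FACIT chain that limits fibril width, was at 1.14, 1.78, 6.64, 1.50 and 3.39 FPKM in WT and at 1.31, 2.45, 2.76, 1.01 and 1.29 in KO. In female hearts, Col14a1 was at 2.06, 1.99 and 1.64 FPKM in WT and at 1.06, 2.67 and 3.45 in KO. Its slope was 0.30 (SE 0.061, adjusted p = 0.00552, edgeR), and S7 and S9 held its highest male values. In male hearts, Col27a1 was at 0.237, 0.289, 0.679, 0.195 and 0.510 FPKM in WT and at 0.192, 0.395, 0.505, 0.153 and 0.304 in KO. In female hearts, Col27a1 was at 0.199, 0.311 and 0.405 FPKM in WT and at 0.230, 0.317 and 0.408 in KO. S7, S12 and S9 were its 3 highest libraries, and its slope was 0.25 (SE 0.054, adjusted p = 0.00682, edgeR).

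Col6a3 had a slope of 0.29 (SE 0.063, adjusted p = 0.00801, edgeR). In male hearts, Col6a3 was at 0.677, 1.02, 2.28, 0.502 and 1.49 FPKM in WT and at 0.634, 1.26, 2.16, 0.707 and 0.980 in KO. In female hearts, Col6a3 was at 0.772, 1.59 and 1.70 FPKM in WT and at 1.01, 1.24 and 2.75 in KO. TKO4, a library of low score, exceeded S7 here. In male hearts, Col16a1 was at 0.979, 1.81, 2.90, 0.907 and 2.12 FPKM in WT and at 0.912, 2.10, 2.59, 1.65 and 1.37 in KO, with a slope of 0.21 (SE 0.047, adjusted p = 0.00980, edgeR). In female hearts, Col16a1 was at 1.14, 1.13 and 1.83 FPKM in WT and at 1.25, 1.62 and 2.58 in KO. The 4 high-score libraries held the 4 highest male values of Col16a1. Among the abundant fibrillar genes, Col1a1 had a slope of 0.23 (adjusted p = 0.0310, edgeR), Col5a2 of 0.19 (adjusted p = 0.0166, edgeR) and Col1a2 of 0.16 (adjusted p = 0.0437, edgeR). Col1a1 lay between 12.2 and 17.8 FPKM in the 4 high-score libraries and between 3.69 and 15.7 in the others. Col3a1 had a slope of the same size as Col1a2, 0.16, with a larger error (SE 0.085), and missed the threshold (adjusted p = 0.275, edgeR), with ranges of 8.45 to 13.2 and 3.92 to 25.03 FPKM.

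The abundant basement membrane chains showed no such slope. Col4a1 had a slope of -0.01 (adjusted p = 0.941, edgeR) and Col4a2 of -0.02 (adjusted p = 0.811, edgeR), and their levels in the 4 high-score libraries, 72.2 to 116 and 62.5 to 87.0 FPKM, lay inside those of the others, 64.6 to 152 and 48.7 to 105. Their share of the collagen sum was lowest in S7, at 54.5%. Col4a5 had a slope of 0.10 (adjusted p = 0.202, edgeR), and Col6a1 of 0.14 (adjusted p = 0.109, edgeR).

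**Figure D4:**
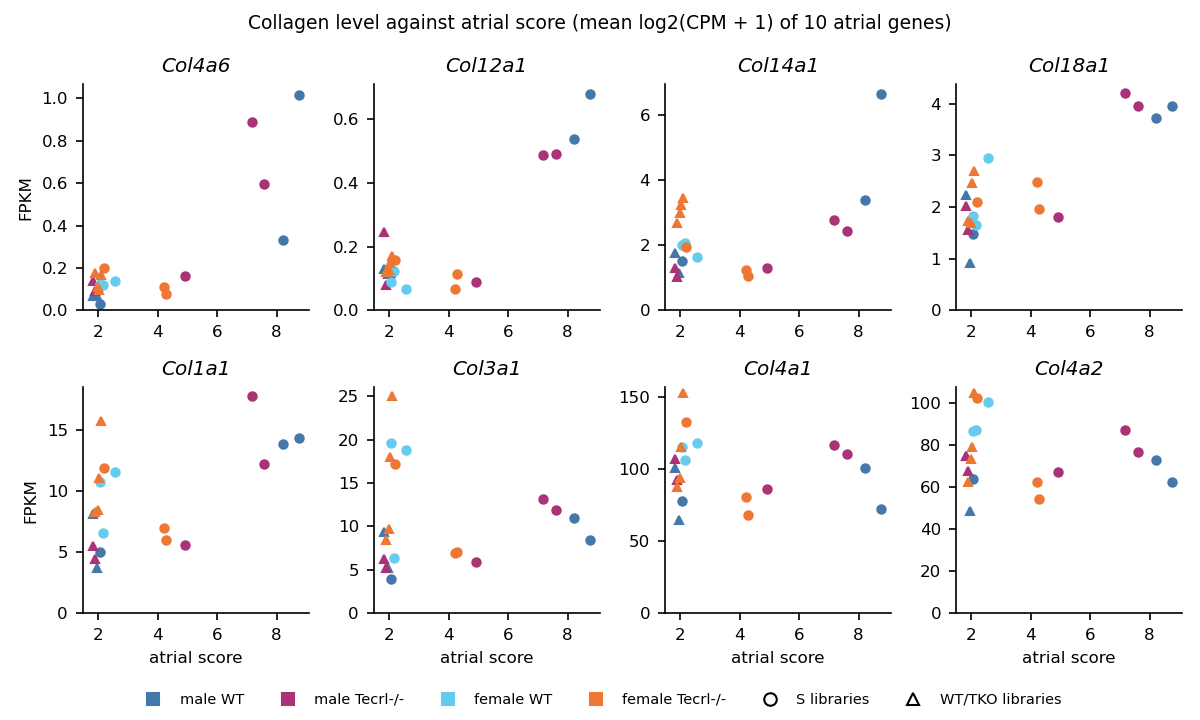
Level in FPKM against the atrial score for 8 collagens, with 1 point per library coloured by labelled group and shaped by the kind of library name. Col4a6 and Col12a1 lie above all other libraries in S7, S9, S11 and S12, whose scores run from 7.18 to 8.74, while Col4a1 in these 4 lies within the range of the others.

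The slopes rested on those 4 libraries. Without them no collagen and 5 genes in all were called, the median slope was -0.08, and Col4a6 and Col12a1 had slopes of -0.05 and -0.32. Within the S libraries alone the slopes of Col4a6 (0.56), Col12a1 (0.34) and Col18a1 (0.21) were close to those over all 20. No collagen passed the adjusted threshold there, beside 0.710% of all genes. Without the 6 libraries against their label, S7 and S9 among them, the median slope was 0.39 and no collagen or other gene was called. When the Y-linked level entered the fit, 3 collagens were called, Col4a6, Col27a1 and Col18a1, and 10 calls were lost. Calls became fewer over all genes as well, from 8.21% to 2.75%, beside 38.2% and 8.82% of the collagens. The number of calls was 6 without S7, and it stayed between 9 and 17 when any other single library was left out. S7 and S9 were labelled male WT and S11 and S12 male KO, so 2 high-score libraries stood on each side of the male genotype comparison.

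Several cell type markers moved with the same libraries. Epicardial markers rose with the score (7 of 8 at an adjusted p under 0.05 in edgeR, beside the same 5.25% of all genes higher and 2.96% lower), as did 6 of 7 adipocyte, 3 of 4 endocardial, 2 of 7 valve and 3 of 10 fibroblast markers, the last being Lum, Dpt and Tcf21. The summed fibroblast markers lay at 3591 to 5065 CPM in the 4 high-score libraries and at 2258 to 3025 in the other 16. Epicardial markers summed to 20.1 to 434 against 8.65 to 58.9 CPM, endocardial markers to 269.8 to 815 against 99.0 to 323, and valve markers to 120.4 to 228 against 19.1 to 124. The adipocyte markers summed to 17.9 to 1575 CPM, the highest in S7, against 0.597 to 28.8 CPM. Bnc1 of the epicardial list was at 0 in 6 of the 16 lower libraries, and Lep of the adipocyte list at 0 in all 4 high-score libraries and 15 of the others. Macrophage and Schwann cell markers held no call, 2 of 8 ventricular and 3 of 7 smooth muscle and pericyte markers fell, and 1 of 8 endothelial markers rose. The part of these cell types in the collagen slopes was not tested.

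Genes that build, modify and bind collagen were counted beside the chains themselves. With the atrial score, where 5.25% of all genes rose and 2.96% fell, 6 of 18 folding and modification genes rose and none fell, among them the prolyl 3-hydroxylase complex members Crtap (0.13) and P3h1 (0.10), its relative P3h3 (0.17) and the collagen chaperone Serpinh1 (0.13). Of the procollagen processing genes, 2 of 7 rose, the enhancer Pcolce (0.17) and the protease Adamts2 (0.17). The lysyl oxidase Loxl1 (0.22, adjusted p = 0.00503, edgeR) was the single crosslinking gene of 5 called. Fibril partners rose in 5 of 10 cases, with the small proteoglycans Bgn (0.21), Lum (0.17) and Fmod (0.50) and with fibronectin, Fn1 (0.21). On the degrading side 5 of 14 rose, led by the protease inhibitor Timp1 (0.40, adjusted p = 0.000543, edgeR) and the collagen uptake receptor Mrc2 (0.19), with Timp2 (0.15) and the cathepsin Ctsk (0.17). The collagen-binding kinase Ddr1 (0.17) was the single one of 8 receptors, and 7 of 16 TGF-beta genes rose, among them the ligand Tgfb2 (0.24), its binding protein Ltbp3 (0.18), the signal carrier Smad3 (0.26) and the target Ctgf (0.36). None of the 10 laminins, nidogens and other basement membrane partners was called, as with Col4a1 and Col4a2.

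The same lists were counted by genotype at the study thresholds. In male hearts the galactosyltransferase Colgalt2 (0.69, adjusted p = 0.882 in edgeR) was the single gene of the 8 lists past the study thresholds, beside 0.905% of all genes higher and 1.19% lower. In female hearts, where 7.15% of all genes were called lower, 3 of 7 procollagen processing genes were lower, the proteases Adamts14 (-1.48), Adamts3 (-0.98) and Bmp1 (-0.68), which trim procollagen ends, and the median of that list was -0.38. Single genes of 3 other lists were lower, Fmod (-0.97), the integrin chain Itga10 (-1.18) and the basement membrane proteoglycan Agrn (-0.84), and Ctgf (0.72) was higher. No gene of these lists passed an adjusted p of 0.05 over all 20 libraries. Y-linked genes were higher in KO in both comparisons (4 of 4 each), adipocyte markers were lower in male KO (6 of 6) and higher in female KO (3 of 4), and 3 of 8 atrial markers were higher in female KO. Beyond the fits with the Y-linked level or the atrial score as a term, the part of these markers in the collagen values was not tested. Between the kinds of name, where 6.53% of all genes were higher and 8.16% lower, 6 of 14 degradation genes passed an adjusted p of 0.05 in edgeR, 2 higher and 4 lower in the WT and TKO libraries, among them the protease Mmp15 (0.43) on the higher and Timp1 (-1.66), Mmp14 (-0.54) and Mmp3 (-1.21) on the lower side. Of 8 receptors Itga1 (0.48) was higher and Ddr1 (-0.71) lower, of 10 basement membrane partners the laminin chain Lama2 (0.63, adjusted p = 0.00217, edgeR) was higher, and of 5 crosslinking genes Lox (-0.47) was lower. Of 16 TGF-beta genes 2 were lower, Tgfb1 (-0.52) and Tgfb3 (-0.48), and no folding, processing or fibril partner gene passed.

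Levels of 8 pairs of chains were compared across the 20 libraries on log2(CPM + 1): 7 pairs of chains of the same collagen type, and Col1a1 with Col3a1, whose products are separate molecules that share fibrils. The libraries share tissue, depth and the composition described above, so the coefficients describe these libraries. Col1a1 and Col1a2 had a Pearson's r of 0.968 and a Spearman's rho of 0.947 (both adjusted p = 2e-05 by permutation), and r was 0.967 without the 2 libraries farthest from the median, S12 and WT1. Col4a1 and Col4a2 had an r of 0.952 and a rho of 0.952 (both adjusted p = 2e-05 by permutation, r = 0.929 without TKO4 and WT1), and Col6a1 and Col6a2 an r of 0.930 and a rho of 0.952 (both adjusted p = 2e-05 by permutation, r = 0.902 without S10 and TKO4). Within the S libraries and within the 8 WT and TKO libraries these 3 coefficients were 0.979 and 0.983, 0.957 and 0.986, and 0.933 and 0.927. The chains of type I, of the main type IV and of type VI thus rose and fell together in both kinds of library.

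Other pairs were looser. Col4a3 and Col4a4 had an r of 0.884 (rho 0.880, both adjusted p = 2e-05 by permutation), Col1a1 and Col3a1 an r of 0.824 (rho 0.841, both adjusted p = 3.2e-05 by permutation), and Col5a1 and Col5a2 an r of 0.824 (rho 0.847, both adjusted p = 4e-05 by permutation). Without the 2 farthest libraries these were 0.867, 0.836 and 0.788. Within the S and the other libraries they were 0.843 and 0.923, 0.757 and 0.959, and 0.785 and 0.982. Col4a5 and Col4a6 had an r of 0.520 (adjusted p = 0.0228 by permutation) and a rho of 0.486 (adjusted p = 0.032 by permutation), r = 0.484 without S4 and S8. The coefficient was 0.569 within the S libraries and 0.106 within the 8 others (exact permutation p = 0.79), so the relation did not hold within both kinds. Col8a1 and Col8a2 had an r of 0.417 (adjusted p = 0.0679 by permutation) and a rho of 0.499 (adjusted p = 0.0297 by permutation), with 0.643 and 0.862 within the 2 kinds and r = 0.400 without the 2 farthest libraries.

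**Figure D5:**
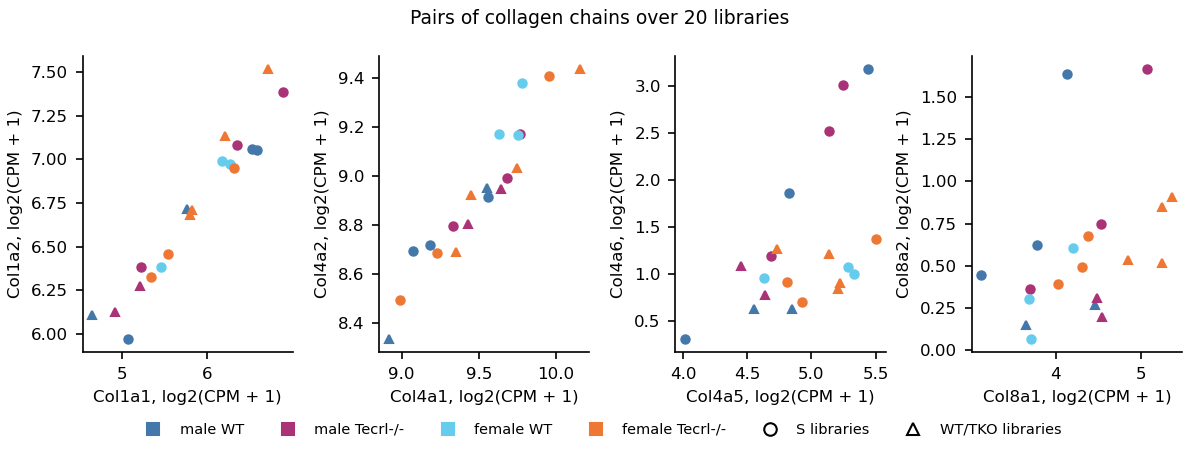
Level of the partner chain against that of the first chain, as log2(CPM + 1), for 4 pairs of collagen chains, with 1 point per library coloured by labelled group and shaped by the kind of library name. Col4a1 and Col4a2 follow a line (r = 0.952), while Col4a5 and Col4a6 scatter (r = 0.520).

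The type IV genes lie head to head in pairs, so the sequences at their starts are shown for the type IV pair with the closest relation across libraries and for the type IV pair whose relation was looser and was not seen within the WT and TKO libraries. In the GRCm38 annotation (GENCODE M21), Col4a1 (chromosome 8, 11198423 to 11312826, minus strand) and Col4a2 (11312805 to 11449287, plus strand) overlap by 22 bp at their first exons. Col4a4 and Col4a3 start 72 bp apart on chromosome 1, and Col4a6 (chromosome X, 141165403 to 141474076, minus strand) and Col4a5 (141475385 to 141689234, plus strand) start 1309 bp apart. Each line below runs 5′ to 3′ on the strand of its gene, from 250 bases before the RefSeq start to 20 bases from it, in GRCm38.p6: chr8:11312807-11313076 for Col4a1, chr8:11312555-11312824 for Col4a2, chrX:141474057-141474326 for Col4a6 and chrX:141475169-141475438 for Col4a5. Capitals mark the motifs searched on both strands, the TATA box (TATAAA), the CCAAT box (CCAAT) and the GC box (GGGCGG).
Col4a1: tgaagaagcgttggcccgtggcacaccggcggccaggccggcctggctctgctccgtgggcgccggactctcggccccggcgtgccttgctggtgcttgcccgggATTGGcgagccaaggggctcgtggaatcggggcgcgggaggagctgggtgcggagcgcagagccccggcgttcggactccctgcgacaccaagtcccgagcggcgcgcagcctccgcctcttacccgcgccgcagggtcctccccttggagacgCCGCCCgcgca
Col4a2: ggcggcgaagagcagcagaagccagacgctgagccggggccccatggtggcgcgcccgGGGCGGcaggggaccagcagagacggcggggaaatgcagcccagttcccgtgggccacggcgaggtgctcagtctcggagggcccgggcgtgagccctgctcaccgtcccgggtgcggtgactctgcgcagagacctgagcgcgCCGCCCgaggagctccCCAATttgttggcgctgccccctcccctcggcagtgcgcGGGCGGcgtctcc
Col4a6: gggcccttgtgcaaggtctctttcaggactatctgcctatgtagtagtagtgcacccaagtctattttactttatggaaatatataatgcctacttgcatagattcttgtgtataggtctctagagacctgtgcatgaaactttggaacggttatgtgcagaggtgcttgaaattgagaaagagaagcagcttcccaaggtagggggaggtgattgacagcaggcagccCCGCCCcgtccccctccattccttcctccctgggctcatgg
Col4a5: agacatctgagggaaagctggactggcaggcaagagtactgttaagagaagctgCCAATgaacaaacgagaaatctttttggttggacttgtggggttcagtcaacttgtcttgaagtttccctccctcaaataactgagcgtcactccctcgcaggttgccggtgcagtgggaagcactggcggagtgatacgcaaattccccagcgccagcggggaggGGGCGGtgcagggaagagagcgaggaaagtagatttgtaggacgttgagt

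The Col4a1 and Col4a2 windows share 18 bp, and their GC contents were 74.4% and 74.1%, against 48.9% for Col4a6 and 53.0% for Col4a5. None of the 4 held a TATA box. A CCAAT box began at -145 in Col4a1, at -32 in Col4a2 and at -196 in Col4a5, counted from 0 at the start, and was not in the Col4a6 window, and each of the 4 held at least 1 GC box, with 3 in Col4a2. Of 27025 promoters in the RefSeq table, 13.44% held a TATA box, 35.94% a CCAAT box and 34.37% a GC box. The 35 collagen genes with an entry held them in 5, 12 and 22 cases. A match is a run of letters and not a site shown to be used.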

How the data were processed

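Counts per gene and the matching FPKM values were deposited as 1 table of 20 libraries. Per the labels and the submitters' processing notes, the authors sequenced 150 bp read pairs on an Illumina HiSeq, and the notes list HISAT2, HTSeq 0.6.1p2, DESeq2 1.26.0 and GRCm38. Strandedness and the way reads in overlapping genes were assigned are not given in the sources used here. In GENCODE M21 exons of 7 of the 34 tested collagens overlap another gene, by 65 bp in Col4a2 and by 5.65% and 6.07% of the exons in Col4a3 and Col9a3, so those counts may include reads of the neighbour.

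The deposited FPKM values were used for levels. Differences were tested on the deposited counts with edgeR 4.0.16 in R 4.3.3 (TMM, quasi-likelihood F test, Benjamini-Hochberg adjustment over all genes tested), on genes that reached 10 counts in 3 or more libraries of the comparison. Terms for the kind of library name, labelled sex or group were added as stated. DESeq2 1.42.0 and limma 3.58.1 on log2(FPKM + 1) were alternatives, and the methods were tested on simulated data. Total counts of 12540002 to 20038593 per library leave collagens under about 10 counts imprecise. Correlations used 100000 permutations, or all of them for 8 libraries. The members, gene lists, thresholds and tests were chosen with earlier results of these data known. Named collagens were the 10 with the highest median FPKM and up to 6 past the threshold in each comparison, by p. Other genes were named from the lists, at most the 4 of smallest p. No library was left out of the comparisons unless stated, and no 2 libraries of a group held identical counts.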

Additional observations from a re-analysis of the deposited data

How the results depend on the processing

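The counts of 0 collagens for genotype over all 20 libraries and for the interaction held under each alternative run, and the Col8a1 fold change of KO over WT over all 20 libraries was positive in all 32 alternatives (0.43 to 0.83). The 2 male calls fell to 0 with limma on log2(FPKM + 1), in the WT and TKO libraries alone, with the Y-linked level as a term and without the 6 libraries against their label, and lay between 0 and 2 when 1 library was left out. The 2 female calls became 1 with at least 10 counts in each library (3.57% of collagens beside 9.32% of all genes), where Col9a3 was not tested. They became 1 in 1 fit of all 20 libraries (2.94% beside 7.31%). They became 5 with no filter (11.9% beside 8.20%) or no term for the kind of name (16.1% beside 9.99%), and 0 with limma. They became 6 without S4, S5 and S6 in a fit that also had no term for the kind of name (19.4% beside 15.1%). When 1 library was left out there were 2 to 9, the 9 without S1 (29.0% beside 20.6%). The 2 calls between kinds of name became 5 with DESeq2 (14.7% of collagens beside 19.3% of all genes). They became 4 with no filter (9.1% beside 9.3%) or the Y-linked level as a term (11.8% beside 17.4%). They became 1 in KO libraries alone (3.03% beside 11.2%), 0 with limma or without the 6 libraries, and 0 to 4 when 1 library was left out. The 13 calls on the atrial score became 3 with the Y-linked level as a term, 0 in either kind of library alone, without the 6 libraries and without the 4 highest scores (an alternative chosen after seeing the data), and 6 to 17 when 1 library was left out. The median over the collagens in female hearts ran from -0.30 to 0.22 over the alternatives.

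Slopes on the score reversed without the 4 highest scores for Col4a6 (-0.053), Col14a1 (-0.13), Col12a1 (-0.32), Col16a1 (-0.0557), Col5a2 (-0.0248), Col23a1 (-0.13), Col1a1 (-0.10) and Col6a2 (-0.0906). In the WT and TKO libraries alone, where the score spans only 1.82 to 2.09, they reversed for Col4a6 (-1.04), Col14a1 (-0.17), Col12a1 (-0.11), Col18a1 (-0.45) and Col23a1 (-2.42). With no term for the kind of name that of Col8a1 was -0.0312. The cause was not tested beyond these alternatives. Without the 4 highest scores the correlation of Col1a1 with Col3a1 was 0.948, that of Col5a1 with Col5a2 0.945 and that of Col8a1 with Col8a2 0.627. The Y-linked level was not run as a term in female hearts, where the other terms already explained all but a trace of it. No paired analysis was possible because the labels number no libraries across groups.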
